A study of Bos grunniens with 18 samples.

Results

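Matricellular proteins are secreted into the extracellular matrix but, unlike collagens, mainly regulate how cells adhere, signal and remodel their surroundings rather than bear load. Their genes were followed in the testis of the yak (Bos grunniens) at 3 ages. The set was chosen by symbol from the gene table: SPARC, SPARCL1, THBS1, THBS2, POSTN, TNC, CCN1, CCN2, FN1 and SPP1, 10 of 22183 genes, and all 10 were among the 16742 genes that passed the filter on low counts. The testes came from 9 healthy male yaks of 1 cooperative, with no treatment or genetic change named in the labels, 3 animals at 6 months (Y6M), 3 at 18 months (Y18M) and 3 at 4 years (Y4Y). The animals were castrated under anaesthesia, and whole testicular tissue was washed, frozen and sequenced after removal of ribosomal RNA. A further label calls the 4-year samples infancy, the 6-month samples adolescence and the 18-month samples adulthood, which is at odds with the ages in the sample names, and the groups here follow the names.

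Within the set, SPARC and its relative SPARCL1 bind collagen and calcium and influence how matrix is assembled. THBS1 and THBS2 are thrombospondins, multimeric proteins that bind CD36 and CD47 and restrain blood vessel growth, and THBS1 can also activate latent TGF-beta. TNC (tenascin C), POSTN (periostin), FN1 (fibronectin, also a structural matrix protein) and SPP1 (osteopontin) are ligands of integrins, and CCN1 and CCN2 are integrin-binding proteins whose genes are well-known targets of the YAP and TAZ co-activators. In a testis, matrix lies around the seminiferous tubules and in the interstitium between them, where peritubular myoid cells, fibroblasts, vessels, macrophages and Leydig cells reside.

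The gene table held 22950629.7 to 33123856 estimated counts per library. Levels are given as CPM, counts per 1000000 after TMM scaling, a scaling that sets the libraries level over the bulk of genes. Summed germ cell markers separated the ages: 8 spermatid markers came to 1.27 to 4.48 CPM at 6 months, to 2559, 150 and 993 CPM in 18-month replicates 1, 2 and 3, and to 2588 to 3551 CPM at 4 years, so the 18-month testes were unlike one another. Summed markers of 8 fibroblast genes were 1603 to 2059 CPM at 6 months, 118 to 337 at 18 months and 117 to 142 at 4 years, and those of 5 Leydig cell genes were 10199 to 15870, 2252 to 5329 and 2286 to 4053 CPM. The sums of 7 endothelial markers were 213 to 279, 141 to 206 and 166 to 173 CPM, those of 7 peritubular myoid markers 276 to 405, 208 to 792 and 200 to 227 CPM, and those of 6 Sertoli cell markers 968 to 1332, 544 to 1122 and 588 to 628 CPM. Every marker of these 6 lists had reads in every library, except that 7 or 8 of the 8 spermatid markers did at 6 months. Some sums held members that went opposite ways. Of the endothelial markers 6 fell at both later ages (KDR from a mean of 104 CPM at 6 months to 30.0 at 4 years, PECAM1 from 44.7 to 17.2), and VWF rose from 12.0 to 93.5. Of the Sertoli cell markers 5 fell at both ages and FATE1 rose from 53.9 to 553 CPM. All 8 spermatid markers rose and all 5 Leydig cell markers fell at both ages. Of the 8 fibroblast markers 6 fell at both, and MFAP5 rose from 0.66 CPM at 6 months to 3.18 at 4 years. Of the myoid markers 3 rose and 1 fell at 18 months and 1 rose and 2 fell at 4 years. These markers moved with age as did the genes described here, and their part in the differences was not tested. In bulk tissue, fewer cells of a type, less RNA per cell and a larger share of the library taken by other transcripts cannot be told apart.

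SPARC was the most abundant of the 10 at every age. Compared per length as FPKM (fragments scaled to transcript length and library depth, from the authors' deposited table), the means at 6 months were 3684 ± 950 (SD, n = 3) for SPARC, 121 ± 32.0 for SPARCL1 and 2.99 ± 0.97 for FN1, followed by CCN1, POSTN, THBS2, CCN2, SPP1 and THBS1 at 2.42 to 0.97 and by TNC at 0.075. From FN1 down to THBS1 the ranges of neighbours in that order overlapped, whereas SPARC, SPARCL1 and TNC stood clear of their neighbours. At 4 years the order was SPARC at 139 ± 9.84 FPKM, THBS2 at 8.16 ± 1.28, SPARCL1 at 7.63 ± 0.71, CCN2 at 3.22, CCN1 at 2.46, TNC at 2.20, FN1 at 1.45, POSTN at 0.42, THBS1 at 0.35 and SPP1 at 0.14. THBS2 and SPARCL1 overlapped there, as did CCN2 with CCN1, CCN1 with TNC, POSTN with THBS1 and THBS1 with SPP1. At 18 months only SPARC stood clear of the gene below it in the order, in which CCN2 (5.83 FPKM) and THBS2 (5.13 FPKM) came after SPARCL1 (16.9 FPKM). SPARC made up 96.5% of the summed FPKM of the 10 genes at 6 months, 90.6% at 18 months and 84.2% at 4 years. The place of TNC in these orders depends on the transcript length behind its FPKM, which differed between libraries, as described below. That length was 6.68 to 8.37 kb at 6 months and 1.33 to 1.37 kb at 4 years. In CPM, which is not scaled to length, the 4-year mean was 2.83 for TNC and 12.7 for FN1.

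**Figure D1:**
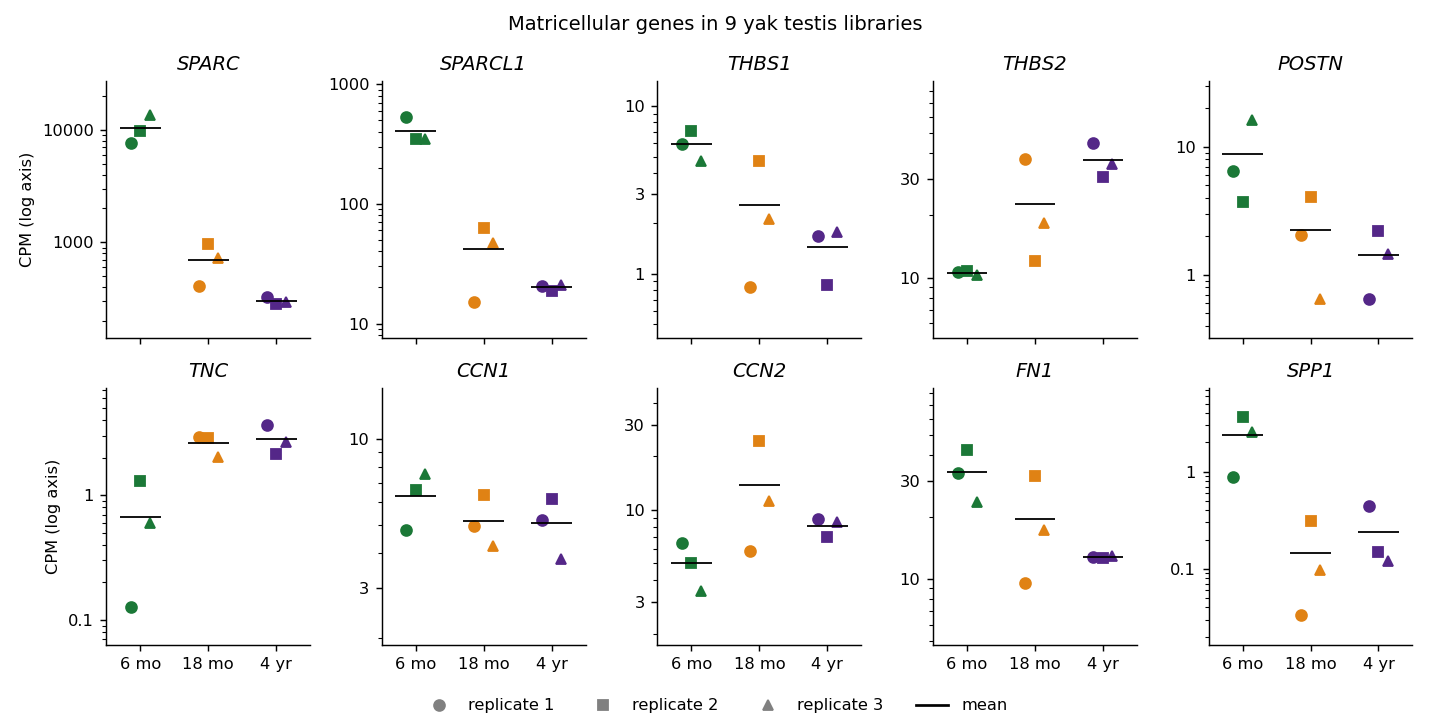
CPM (log axis, its range set per gene) of the 10 genes in each of the 9 libraries by age, with the mean of 3 as a bar. SPARC and SPARCL1 are lower in every older testis than in every 6-month testis, THBS2 and TNC are higher, and the 18-month points are widely spread for most genes.

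SPARC and SPARCL1, the most abundant of the set at 6 months, fell to both later ages. SPARC was at 7695, 9815 and 13540 CPM in the 6-month testes, at 414, 976 and 722 CPM in the 18-month testes and at 330, 285 and 298 CPM in the 4-year testes. No value of one age overlapped with those of another. A single 6-month library gave 0.667% to 1.10% of all its counts to this gene, and a 4-year library 0.0292% to 0.0333%. Its rank by FPKM among all genes of the library was 49, 29 and 15 at 6 months and 666, 780 and 647 at 4 years. From 6 to 18 months SPARC fell by 3.88 on the log2 scale (SE 0.39, adjusted p = 0.000108, edgeR quasi-likelihood test with Benjamini-Hochberg adjustment over all 16742 genes), a 14.7-fold lower mean, and from 6 months to 4 years by 5.09 (SE 0.41, adjusted p = 3.87e-05), a 34.0-fold lower mean.

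SPARCL1, which is best known from vessels and brain, was at 530, 346 and 351 CPM at 6 months, at 15.3, 62.8 and 47.5 CPM at 18 months and at 20.7, 18.7 and 21.0 CPM at 4 years. The 6-month testes were all far above the rest, and the 18-month values lay on both sides of the 4-year values. It fell by 3.29 (SE 0.47, adjusted p = 0.000496) to 18 months and by 4.35 (SE 0.49, adjusted p = 0.000112) to 4 years, with means 9.77-fold and 20.3-fold lower. The SPARCL1 to SPARC ratio itself (log2 of the counts, with 0.5 added) was -3.86, -4.82 and -5.27 at 6 months, -4.76, -3.96 and -3.93 at 18 months and -4.0, -3.93 and -3.82 at 4 years. These ranges overlapped between ages, and an exact permutation test of the ratio over the 3 ages (two-sided F statistic, 280 distinct groupings) gave p = 0.304, also 0.304 after adjustment over the 3 ratios tested in this way.

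Of the thrombospondins, THBS2 rose and THBS1 fell between 6 months and 4 years. THBS2 was at 10.6, 10.7 and 10.2 CPM at 6 months, at 37.5, 12.0 and 18.4 CPM at 18 months and at 44.8, 30.6 and 35.5 CPM at 4 years. Every older testis was above every 6-month testis, although 18-month replicate 2 exceeded them by little. THBS2 rose by 1.10 (SE 0.37, adjusted p = 0.0303) to 18 months and by 1.81 (SE 0.38, adjusted p = 0.00233) to 4 years, a 3.51-fold higher mean. The first of these calls was lost without 18-month replicate 1, where the difference was 0.54 (adjusted p = 0.0903), without any 1 of the 6-month replicates 1, 2 and 3 (adjusted p = 0.0746, 0.0734 and 0.0801), and when only these 2 ages were fitted (adjusted p = 0.0656).

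THBS1 was at 5.96, 7.07 and 4.71 CPM at 6 months, at 0.829, 4.72 and 2.11 CPM at 18 months and at 1.67, 0.855 and 1.78 CPM at 4 years. The 4-year values were all below the 6-month values, and 18-month replicate 2 lay within the 6-month range. THBS1 fell by 2.04 (SE 0.60, adjusted p = 0.0125) to 4 years, a call that limma on log2(FPKM + 0.1) did not make (-1.25, adjusted p = 0.0651). Its difference at 18 months was -1.21 (SE 0.58, adjusted p = 0.0995), and without 18-month replicate 2 it was -1.89 (adjusted p = 0.0079). Another gene, a long non-coding RNA, overlaps THBS1 in the RefSeq annotation of the yak assembly Bosgru_T2T1.0, and no source used here says whether the counting used strand. That assembly is not the build UMD3.1 named for the processing, so the overlap does not show which gene the reads were counted to.

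The log2 THBS2 to THBS1 ratio was 0.84, 0.60 and 1.12 at 6 months, 5.47, 1.35 and 3.12 at 18 months and 4.73, 5.14 and 4.30 at 4 years. The 4-year and 18-month ratios were above all 6-month ratios, and 18-month replicate 1 exceeded the 4-year ratios while the others lay below them. The exact permutation test gave p = 0.0321 and an adjusted p of 0.0964 over the 3 ratios, which misses the threshold of 0.05. With each library left out, the adjusted exact p ranged from 0.0107, without 18-month replicate 1, to 0.236. No other omission brought it under the threshold.

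**Figure D2:**
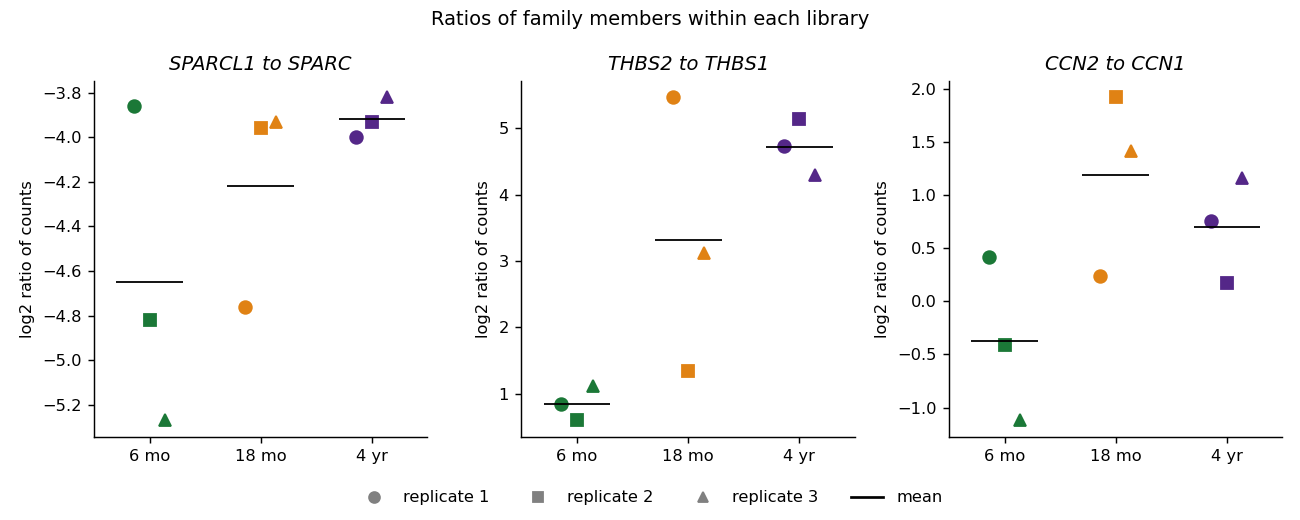
Log2 ratio of counts for the 3 related gene pairs in each library, by age, with the mean of 3 as a bar. The THBS2 to THBS1 ratio is higher in every older testis than at 6 months, while the SPARCL1 to SPARC and CCN2 to CCN1 ratios overlap between ages.

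TNC, a hexameric protein of developing and remodelling tissue, was scarce. It was at 0.127, 1.301 and 0.594 CPM at 6 months (3, 30 and 13 counts), at 2.92, 2.87 and 2.04 CPM at 18 months (88, 84 and 63 counts) and at 3.64, 2.15 and 2.69 CPM at 4 years (107, 73 and 68 counts). The older testes did not overlap with the 6-month testes, among which replicate 1 was far below the others. TNC rose by 1.95 (SE 0.66, adjusted p = 0.0294) to 18 months and by 2.06 (SE 0.66, adjusted p = 0.0185) to 4 years, where its mean was 4.20-fold higher. Without 6-month replicate 3 the adjusted p was 0.0840 and 0.0570, without 18-month replicate 1 the first was 0.0514, without 4-year replicate 1 the second was 0.0583, and with only the 2 ages fitted the first was 0.0652. The differences were 2.85 and 2.97 without 6-month replicate 2, and 1.46 and 1.57 without 6-month replicate 1, the library with 3 counts.

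The deposited FPKM gave a larger rise of TNC than the counts did. Dividing the unscaled CPM by the FPKM returns the transcript length, in kilobases, that the authors' calculation implies for a gene in a library. For TNC this length was 6.87, 8.37 and 6.68 kb at 6 months, 1.34, 7.75 and 2.45 kb at 18 months and 1.33, 1.37 and 1.34 kb at 4 years. The 6-month libraries and 18-month replicate 2, the 18-month testis with the lowest spermatid markers, had long implied lengths, and the 4-year libraries and 18-month replicate 1 had short ones. Over the 9 libraries the TNC length varied 6.31-fold, against 1.05-fold to 1.42-fold for the other members, and a variation over 3-fold was seen in 1.96% of the 13245 genes that could be checked, among which the median was 1.09-fold. Those genes had at least 10 counts and an FPKM of at least 0.05 in every library, and their lengths were first divided by each library's median. TNC, with 3 counts and an FPKM of 0.016 in 6-month replicate 1, was not among them, and the members' lengths were not so divided. On the log2(FPKM + 0.1) scale limma gave TNC differences of 2.72 (adjusted p = 0.0023) and 3.74 (adjusted p = 0.000256), and the log2 ratios of mean FPKM in the authors' deposited table were 4.03 and 4.87.

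**Figure D3:**
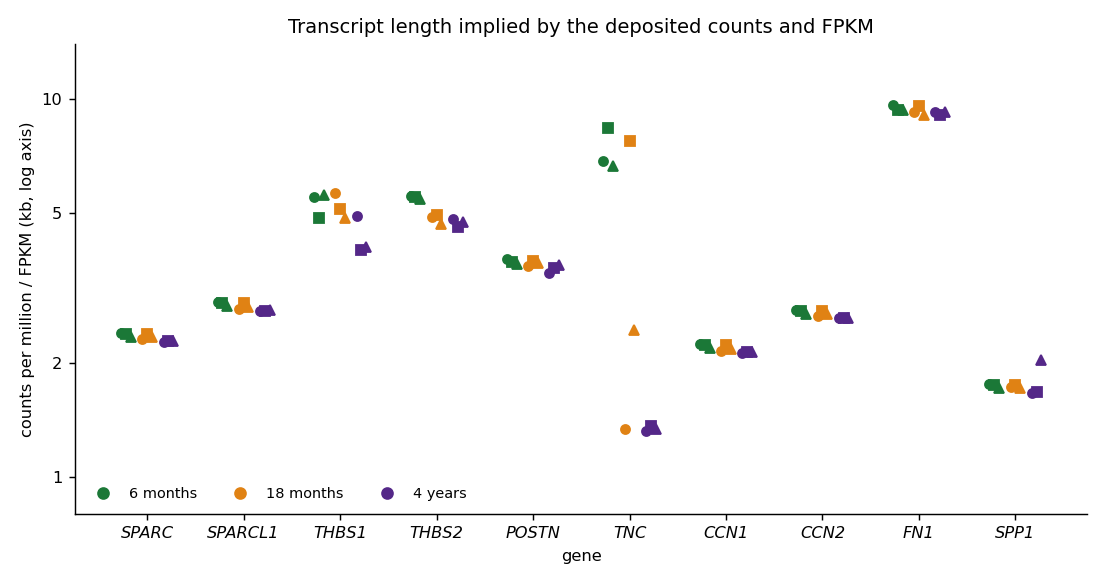
Implied transcript length (kb, log axis) of the 10 genes in each library, as unscaled CPM divided by the deposited FPKM. TNC drops from 6.68 to 8.37 kb at 6 months to 1.33 to 1.37 kb at 4 years, and the other genes stay nearly level.

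CCN1 passed the test in no comparison and CCN2 passed in 1. CCN1 was at 4.82, 6.63 and 7.59 CPM at 6 months, at 4.94, 6.40 and 4.21 CPM at 18 months and at 5.21, 6.19 and 3.80 CPM at 4 years. All 3 ages overlapped. Its difference from 6 months was -0.29 (95% interval -0.99 to 0.40, adjusted p = 0.431) at 18 months and -0.32 (95% interval -1.02 to 0.37, adjusted p = 0.358) at 4 years.

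CCN2 was at 6.46, 4.99 and 3.47 CPM at 6 months, at 5.84, 24.2 and 11.2 CPM at 18 months and at 8.85, 6.99 and 8.51 CPM at 4 years. The highest values were in 18-month replicates 2 and 3, while 18-month replicate 1 lay within the 6-month range and the 4-year values lay just above that range. CCN2 rose by 1.47 (SE 0.48, adjusted p = 0.0268) to 18 months, with adjusted p = 0.0697 without 6-month replicate 2, 0.0890 without 6-month replicate 3 and 0.0597 with only these ages fitted. At 4 years its difference was 0.70 (95% interval -0.38 to 1.79, adjusted p = 0.207), and it passed with only the 2 ages fitted (0.82, adjusted p = 0.0171) and without 18-month replicate 2 (0.83, adjusted p = 0.0379). A protein-coding gene overlaps CCN2 in the yak RefSeq annotation, which is likewise not of the build UMD3.1. That overlap does not show which gene the reads were counted to. The log2 CCN2 to CCN1 ratio was 0.42, -0.41 and -1.12 at 6 months, 0.24, 1.92 and 1.41 at 18 months and 0.76, 0.17 and 1.16 at 4 years. The exact permutation test gave p = 0.114 (adjusted 0.171). With each library left out, its adjusted p ranged from 0.0482, without 18-month replicate 1, to 0.4125, and no other omission passed.

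FN1, the main cell-adhesive glycoprotein of provisional matrix, was at 32.9, 42.4 and 23.6 CPM at 6 months, at 9.62, 31.8 and 17.2 CPM at 18 months and at 12.7, 12.6 and 12.9 CPM at 4 years. The 4-year testes were nearly equal (coefficient of variation 1.23%) and below all 6-month testes, and at 18 months replicate 2 lay among the 6-month values and replicate 1 below the 4-year values. FN1 fell by 1.37 (SE 0.40, adjusted p = 0.0123) to 4 years, a call not made by limma on log2(FPKM + 0.1) (-0.95, adjusted p = 0.0797). At 18 months the difference was -0.75 (SE 0.40, adjusted p = 0.128), and -1.18 (adjusted p = 0.0067) without 18-month replicate 2.

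POSTN was at 6.42, 3.69 and 16.3 CPM at 6 months, at 2.06, 4.07 and 0.648 CPM at 18 months and at 0.647, 2.21 and 1.46 CPM at 4 years. The 6-month animals differed widely among themselves, and 18-month replicate 2 exceeded the lowest of them. POSTN fell by 2.60 (SE 0.79, adjusted p = 0.0149) to 4 years, with adjusted p = 0.0678 without 6-month replicate 3 and 0.0535 without 4-year replicate 1. At 18 months its difference was -1.96 (SE 0.77, adjusted p = 0.0522), and it passed in DESeq2 (-1.88, adjusted p = 0.0216), without 6-month replicate 2 (-2.33, adjusted p = 0.0394) and without 18-month replicate 2 (-2.58, adjusted p = 0.0158).

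SPP1, a phosphoprotein that many macrophages and epithelia secrete, was at 0.887, 3.64 and 2.56 CPM at 6 months (21, 84 and 56 counts), at 0.0332, 0.308 and 0.0973 CPM at 18 months (1, 9 and 3 counts) and at 0.443, 0.147 and 0.119 CPM at 4 years (13, 5 and 3 counts). Every 6-month testis was above every older one, and the older values rest on few reads. SPP1 fell by 3.98 (SE 0.89, adjusted p = 0.00469) to 18 months and by 3.29 (SE 0.85, adjusted p = 0.00687) to 4 years. The summed level of 7 macrophage markers was 323 to 546 CPM at 6 months, 351 to 488 CPM at 18 months and 345 to 398 CPM at 4 years, ranges that overlap, but these markers went opposite ways. At 4 years C1QA (218 to 42.5 CPM), C1QB (169 to 30.2 CPM), CSF1R and ITGAM fell and MRC1 (26.3 to 143 CPM), AIF1 (14.2 to 125 CPM) and CD14 rose, and at 18 months 3 rose and 1 fell. Their part in the SPP1 difference was not tested.

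Counted over the set, 6 of the 10 genes passed the test between 6 and 18 months, 3 higher (THBS2, TNC and CCN2) and 3 lower (SPARC, SPARCL1 and SPP1), where 59.9% of all genes tested passed (32.7% higher, 27.1% lower). Between 6 months and 4 years 8 passed, 2 higher (THBS2 and TNC) and 6 lower (SPARC, SPARCL1, SPP1, POSTN, THBS1 and FN1), where 73.9% of all genes passed (36.7% higher, 37.2% lower). Both shares are close to the background, so the number of members called says little about the set, and the 2 comparisons share the 6-month libraries. With only these ages fitted, 3 members passed at 18 months, where 51.6% of all genes did, and without 6-month replicate 3 also 3, where 49.9% did. Without 18-month replicate 2 it was 9, where 70.5% did. In the counts, 5 members at 18 months and 9 at 4 years had no overlap with the 6-month values, where 65.1% and 83% of all genes had none. The authors' deposited table lists 7 of the 10 as different between 6 and 18 months (34.6% of all 22183 genes listed) and 9 between 6 months and 4 years (47.6% listed), with CCN1 absent from both, and none between 18 months and 4 years (1.11% listed). Those shares include genes below the low-count filter, which 16742 genes and all 10 members passed, so they are not a like background for the set.

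Between 18 months and 4 years none of the 10 passed in edgeR, where 1 gene of 16742 did (0.00597%), and 2 members had an unadjusted p under 0.05. DESeq2 called 1 member, SPARC (-1.12, adjusted p = 0.0243). The share of all genes that DESeq2 called there is not given here, and the edgeR share is not its background. In edgeR SPARC differed by -1.21 (95% interval -2.01 to -0.41, unadjusted p = 0.00758, adjusted p = 0.174) and SPARCL1 by -1.06 (95% interval -2.04 to -0.07, unadjusted p = 0.0387, adjusted p = 0.215). SPARC was the only 1 of the 10 whose 18-month and 4-year values did not overlap, which was so for 25.4% of all genes. Without 18-month replicate 1, 33% of all genes passed (13.2% higher, 19.8% lower), and so did 5 members: SPARC (-1.48, adjusted p = 0.00835), SPARCL1 (-1.45, adjusted p = 0.0067), CCN2 (-1.12, adjusted p = 0.0464) and FN1 (-0.94, adjusted p = 0.0444) were lower at 4 years and THBS2 was higher (1.28, adjusted p = 0.00993).

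The place of each 18-month testis between the 6-month mean (0) and the 4-year mean (1) on the log2 scale described the spread at that age. For replicates 1, 2 and 3 it was 0.91, 0.67 and 0.75 for SPARC, 1.09, 0.62 and 0.71 for SPARCL1, 1.02, 0.11 and 0.45 for THBS2, 1.33, 0.15 and 0.71 for THBS1 and 1.3, 0.01 and 0.67 for FN1. In these 5 genes replicate 1 was nearest to or beyond the 4-year mean and replicate 2 nearest to the 6-month mean. SPP1 had the same order, at 1.48, 0.85 and 1.24, and TNC was close to its 4-year mean in all 3 animals, at 1.03, 1.02 and 0.82. The order was another in POSTN, at 0.74, 0.34 and 1.38, where replicate 3 was farthest from 6 months, and in CCN2, at 0.37, 3.14 and 1.64, where replicate 1 was nearest to 6 months. CCN1, whose ages overlapped, gives no such place. In the spermatid markers replicate 1 was highest and replicate 2 lowest.

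**Figure D4:**
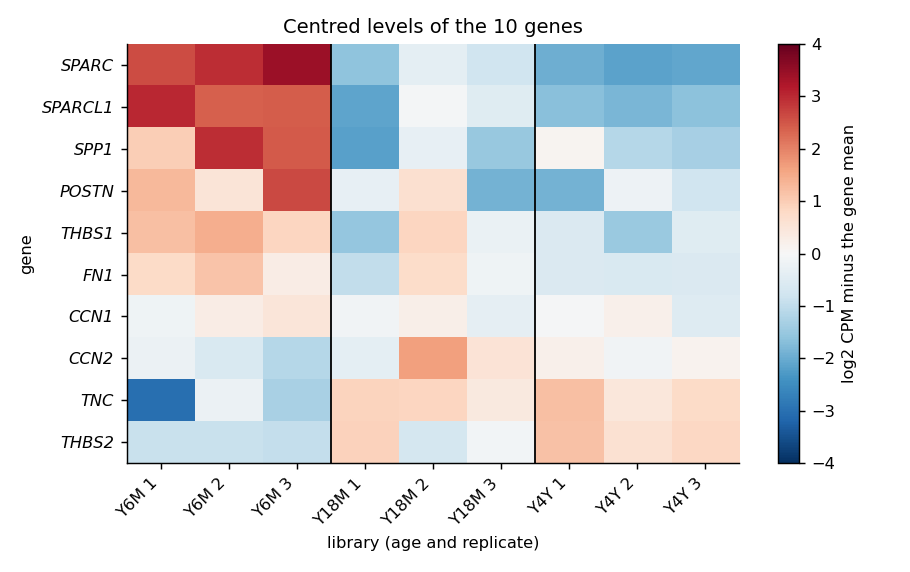
Log2 CPM of each gene in each library, centred on that gene's mean over the 9 libraries (colour scale in log2 units). SPARC, SPARCL1 and SPP1 are high at 6 months, THBS2 and TNC are low, and 18-month replicate 2 is the highest of the 18-month testes for every gene except THBS2 and TNC.

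Since the summed germ cell markers differed so widely between ages, the same test was repeated with each library scaled to 18 genes of fibroblasts, myoid cells and endothelium (among them PDGFRA, ACTA2 and PECAM1), so that a difference is one relative to the mean of those genes. They did not move as one: on this scale 4 of the 18 rose and 6 fell at each later age. Fibroblast markers had median differences of -1.94 at 18 months and -3.21 at 4 years on it, and peritubular myoid markers of 1.76 and 1.29. Some of these markers (PDGFRA, TCF21, ACTA2, MYH11, CNN1, TAGLN and DES) are themselves among the reference genes. Markers outside the reference had medians of -2 and -1.81 for Leydig cells and of -0.21 and -0.67 for Sertoli cells. The mean log2 CPM of the 18 reference genes, here by library size without TMM, was 4.92, 5.06 and 4.56 at 6 months, 3.66, 4.79 and 4.23 at 18 months and 3.79, 3.62 and 3.70 at 4 years. Scaling to these 18 genes moved the median difference of all genes to 1.07 at 18 months and 1.37 at 4 years, from 0.02 and -0.06. On this scale 6 members passed at 18 months, where 63.1% of all genes did (53.6% higher, 9.54% lower), and 7 at 4 years, where 73.5% did (60.3% higher, 13.2% lower). On this scale the values of 6 members at 18 months and of 7 at 4 years had no overlap with those at 6 months, where 65.2% and 81.1% of all genes had none. Between 18 months and 4 years none passed, with 0% of all genes called and no member at an unadjusted p under 0.05, and 1 passed without 18-month replicate 1, where 25.9% of all genes did. At those ages 1 member had no overlap, as did 20% of all genes.

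Relative to the mean of these genes SPARC fell by 2.97 (SE 0.36, adjusted p = 0.000261) to 18 months and fell by 3.69 (SE 0.37, adjusted p = 8.95e-05) to 4 years, and SPARCL1 fell by 2.41 (SE 0.37, adjusted p = 0.000615) and fell by 2.91 (SE 0.37, adjusted p = 0.000192). The stromal-scaled SPARC level was 4215 to 8892 at 6 months, 658 to 838 at 18 months and 454 to 484 at 4 years. SPP1 fell by 3.13 (adjusted p = 0.00672) to 18 months and by 1.91 (adjusted p = 0.0393) to 4 years. The 4-year SPP1 call was lost without 6-month replicate 2 (adjusted p = 0.122) or 3 (0.0984), 18-month replicate 3 (0.0550), or 4-year replicate 2 (0.124) or 3 (0.122), and with the median of the reference list (0.0540) or its endothelial genes alone (0.0835).

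THBS2 rose by 2.34 (SE 0.55, adjusted p = 0.00527) and 3.23 (SE 0.57, adjusted p = 0.000814) relative to the stromal genes, TNC by 3.05 (adjusted p = 0.00352) and 3.51 (adjusted p = 0.00128) and CCN2 by 2.34 (adjusted p = 0.000511) and 2.16 (adjusted p = 0.000438). The stromal-scaled level of CCN2 was 3.54, 2.52 and 2.28 at 6 months, 9.29, 19.97 and 13.0 at 18 months and 12.4, 11.1 and 13.8 at 4 years, so that all older testes were above all 6-month testes. CCN1 rose by 1.09 (SE 0.35, adjusted p = 0.0176) to 4 years, a value that lies below the shift of the median gene, and was not called without 6-month replicate 1 or 2 or 4-year replicate 2 (adjusted p = 0.0665, 0.0568 and 0.0769). At 18 months CCN1 differed by 0.71 (adjusted p = 0.0962), and by 1.00 (adjusted p = 0.0405) without 6-month replicate 3. FN1 was at 0.16 (95% interval -0.42 to 0.75) and 0.09 (95% interval -0.49 to 0.68) relative to the stromal genes, THBS1 at -0.37 and -0.60 and POSTN at -1.12 and -1.24, and none of these 3 passed in either comparison.

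**Figure D5:**
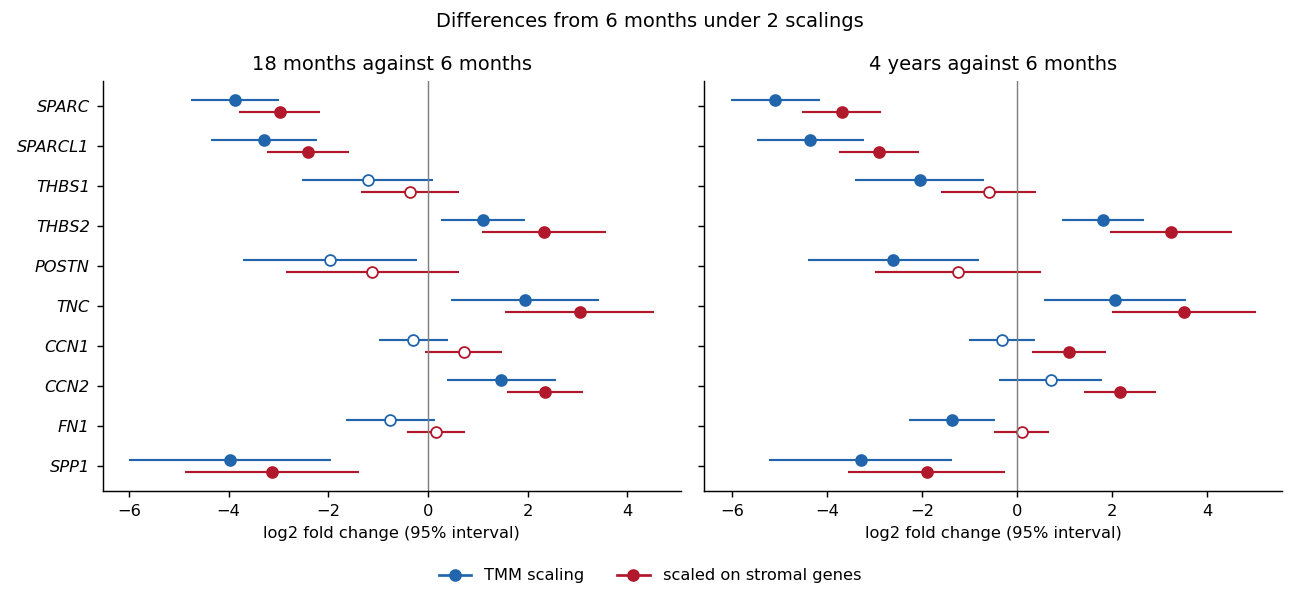
Log2 difference from 6 months (with its 95% interval) of each gene at 18 months and at 4 years, under TMM scaling and under scaling to the stromal reference genes. Filled points passed the test and open points did not. SPARC and SPARCL1 stay well below 0 and THBS2 and TNC above 0 under both, while the FN1 interval at 4 years is below 0 under TMM and spans 0 relative to the stromal genes.

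Among further genes of the same kind, more fell than rose under TMM scaling but not relative to the stromal genes. Of 26 further matricellular genes, 21 were tested, and 5 rose and 10 fell to 18 months (median log2 difference -0.93, against 0.02 over all genes), and 6 rose and 10 fell to 4 years (median -1.35, against -0.06). Of all genes tested, 32.7% were called higher and 27.1% lower at 18 months, and 36.7% and 37.2% at 4 years. COMP, the cartilage oligomeric member of the thrombospondin family, went from 1.31 ± 0.31 CPM (SD, n = 3) at 6 months to 94.3 ± 59.6 at 18 months and 166 ± 21.6 at 4 years, and rose by 6.17 (SE 0.58, adjusted p = 8.3e-05) and 6.99 (SE 0.60, adjusted p = 4.2e-05). FSTL1, a secreted SPARC-family glycoprotein, fell by 2.74 and 3.25, THBS3 by 1.57 to 18 months and TNXB by 3.72 to 4 years. The fall of THBS3 was not called by limma on log2(FPKM + 0.1) (-0.32, adjusted p = 0.434). CCN4, a CCN family member, and TNR, a tenascin, rose by 4.22 and 4.33 to 4 years, and these last 2 were picked after their values were seen. Relative to the stromal genes 8 rose and 6 fell at 18 months (median 0.10, against 1.07 over all genes) and 8 rose and 8 fell at 4 years (median 0.06, against 1.37). Under TMM scaling the count of related genes that rose to 18 months was 3 without any 1 of the 6-month replicates or with only these ages fitted, and limma on FPKM gave 6 lower. The share of all genes that limma on FPKM called is not given here, nor for the lists below.

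Receptors of these proteins mostly fell under TMM scaling. Of 17 integrin chains and other receptors 15 were tested, 10 fell and none rose to 18 months (median -1.15), and 11 fell and 1, ITGB3, rose (1.08) to 4 years (median -1.56). Of all genes tested, 27.1% were called lower and 32.7% higher at 18 months, and 37.2% and 36.7% at 4 years. The medians over all genes were 0.02 and -0.06. ITGB1, the shared beta chain of many integrins, fell by 1.94 and 2.17. CD47, a thrombospondin receptor, fell by 1.71 and 1.75, and ITGA4 by 1.90 to 18 months and ITGAV by 2.64 to 4 years. With library size as the only scaling 6 receptors fell and 1 rose at 18 months, where 9548 of all genes were called, 72.6% of them higher. With limma on FPKM 7 receptors were lower at 4 years. The single rise at 4 years was absent without 6-month replicate 2 or 3 or 4-year replicate 1 or 2, and 2 and 3 receptors rose without 18-month replicates 2 and 1.

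Genes that control the CCN genes and THBS1, those of TGF-beta signalling and of the YAP and TAZ pathway, mostly fell under TMM scaling. Of 30 tested, 19 fell and none rose to 18 months (median -1.07), and 22 fell and 2 rose to 4 years (median -1.69). Under this scaling 27.1% of all genes were called lower and 32.7% higher at 18 months, and 37.2% and 36.7% at 4 years. The medians over all genes were 0.02 and -0.06. TGFBR3, a TGF-beta co-receptor, fell by 2.33 and 2.23, and TEAD2, a DNA-binding partner of YAP and TAZ, by 2.04 and 1.80. WWTR1, the gene of TAZ, fell by 1.74 and 1.59 in the counts, but limma on log2(FPKM + 0.1) put it at -0.36 (adjusted p = 0.362) and 0.18 (adjusted p = 0.629). The 2 that rose to 4 years were YAP1 (1.42) and LATS2 (0.69). Relative to the stromal genes 5 rose and 8 fell at 18 months (median -0.06, against 1.07 over all genes). At 4 years 10 rose and 7 fell on that scale (median -0.26, against 1.37). Of all genes, 53.6% were called higher and 9.54% lower on that scale at 18 months, and 60.3% and 13.2% at 4 years. At 18 months 4 of the 30 rose with library size alone, 2 without 18-month replicate 2, and 5 rose and 11 fell with limma on FPKM.

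Of 17 structural and processing partners of the matrix, 15 fell to 18 months (median -2.12) and 16 to 4 years (median -3.32), and none rose. Under TMM scaling 27.1% of all genes were called lower at 18 months and 37.2% at 4 years, with medians of 0.02 and -0.06. DCN, the collagen-binding proteoglycan decorin, fell by 4.01 and 4.55, the basement membrane collagen gene COL4A2 fell by 4.34 to 18 months and fell by 5.76 to 4 years, and BMP1, the procollagen C-proteinase, fell by 4.27 and 4.38. None of the genes of these 4 lists passed between 18 months and 4 years, but without 18-month replicate 1 the numbers lower at 4 years were 13 partners, 10 TGF-beta and YAP genes, 5 receptors and 5 related genes, where 19.8% of all genes in that fit were called lower. Relative to the stromal genes, 14 of the partners were still lower at 4 years and none higher, and 13 were lower and 1 higher at 18 months. The partners had medians of -1.88 at 4 years and -1.28 at 18 months on that scale, against 1.37 and 1.07 over all genes. On that scale 4 receptors were lower and 4 higher at 4 years (median -0.11), and 4 lower and 3 higher at 18 months (median -0.23). Of all genes, 13.2% were called lower and 60.3% higher there at 4 years, and 9.54% and 53.6% at 18 months.

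Among all 14180 other genes with a symbol that were compared, the patterns most like each member's were found as the smallest root mean square difference of centred log2 CPM over the 9 libraries. They were WLS (0.209) and SLC2A10 (0.241) for SPARC, and EMILIN1 (0.207), an elastic fibre glycoprotein, and FKBP10 (0.223), a collagen chaperone, for SPARCL1. For THBS1 they were SPRED2 (0.207) and SOX17 (0.226), and for THBS2 MTFR1 (0.152) and PPP4R1 (0.167). For FN1 they were DTNB (0.155) and IL4R (0.160), for CCN1 DHX38 (0.106) and PRCP (0.134), for CCN2 METTL24 (0.259) and TNFRSF13B (0.273), and for TNC KIF1A (0.311) and TG (0.375). The nearest genes were farther off for POSTN, DRD1 (0.594) and SUSD1 (0.614), and for SPP1, HSD17B7 and SYNC (both 0.565). Within the set the nearest pairs were THBS1 with FN1 (0.439) and SPARC with SPARCL1 (0.508), nearer than the closest pair with THBS2, which was TNC (0.933).

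Circular RNAs, closed loops made by back-splicing of exons, were counted in a separate deposited table. Of its 73679 circular RNAs, 14 were assigned to 5 of the 10 genes: 7 to SPARCL1, 3 to THBS2, 2 to TNC and 1 each to FN1 and SPARC. The table classes 1 of those at TNC as antisense, so it is not a product of that gene's own strand. Only SPARCL1 had enough reads for a test. Its summed back-splice reads were 49, 17 and 15 at 6 months, 3, 7 and 3 at 18 months and 0, 0 and 0 at 4 years. The 6-month libraries were all above the rest. The most abundant of the 7, on chromosome 6 from 102377845 to 102384814 on the minus strand and made of annotated exons (coordinates as that table gives them, with its genome build not given in the sources used here), had 21, 15 and 11 reads at 6 months, 3 in each 18-month library and none at 4 years.

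In counts per 1000000 back-splice reads, SPARCL1 circles were at 171 in the 6-month group and 21.4 in the 18-month group, and were at least 27.3-fold lower at 4 years than at 6 months when the 4-year group is set to a floor of 3 reads over its 3 libraries. The host sum fell by 2.92 (SE 0.76, adjusted p = 0.0313, edgeR over 3389 host genes, of which 11% passed) to 18 months, and its difference to 4 years passed as well (adjusted p = 0.00173, where 31.1% of hosts passed). The first call was lost without 6-month replicate 1 (-2.20, adjusted p = 0.282), 6-month replicate 3 (adjusted p = 0.0678), 18-month replicate 1 (0.0965) or 18-month replicate 3 (0.104), and when scaled to the gene table (0.0569). Between 18 months and 4 years the host sum did not pass (unadjusted p = 0.00692, adjusted p = 0.249, with 0.0295% of hosts called). Linear SPARCL1 counts were also lower at 18 months and 4 years, so the circles and the gene were lower in the same testes. The antisense circle at TNC had 6 reads in 18-month replicate 1 and none elsewhere.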

How the data were processed

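Paired-end libraries of ribosome-depleted total RNA from 9 testes were deposited as a gene table of estimated counts and FPKM, per the file headers. Tools named in the submitters' processing notes, without their roles, were HISAT2 2.1.0, fastp 0.18.0 and StringTie 1.3.4, with the build UMD3.1. The sources used here do not name the counter, its strand setting, or the caller and build behind the circular RNAs. The authors' deposited estimated counts (3137 genes held values that were not whole) were rounded and tested in edgeR 4.0.16 (R 4.3.3) with its low-count filter, TMM scaling and age as the only factor over 9 libraries. A gene was called at an adjusted p under 0.05 over all 16742 genes tested. The authors' deposited FPKM served for levels between genes and for limma 3.58.1 with a pseudocount of 0.1, a setting added after seeing the data. The authors' deposited table also gave log2 ratios and FDR p-values, shown as theirs. The authors' deposited counts of back-splice reads per circular RNA were summed by host gene. Intervals are at 95% and cover the spread between animals, and the floor of 3 reads covers counting error only. Alternatives were DESeq2 1.42.0, other scalings and filters, 2 ages only, a replicate block and each library left out. The edgeR fit and the permutation test were checked on simulated data. In simulated 4-year against 6-month counts, edgeR called 7.6% of 92 genes changed by 1 on the log2 scale and 67.4% of 95 changed by 2. It also called 2 unchanged genes. Far more genes were called in the real data, so these shares are not the power of the tests here. A gene not called is not shown to be unchanged. Pathway genes named are up to 3 per list and comparison with the smallest p, and the gene patterns are the 2 nearest. The members, lists and rules were chosen with earlier results of these data known.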

Additional observations from a re-analysis of the deposited data

How the results depend on the processing

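The differences of SPARC, SPARCL1 and SPP1 from 6 months at both ages, and of THBS2 at 4 years, kept direction and call under all 17 alternatives. Members called at 18 months against 6 months numbered 3 with only the 2 ages fitted and 3 to 9 with each library left out, and at 4 years against 6 months 6 to 9. Between 18 months and 4 years DESeq2 called 1, with its share over all genes not given here. In edgeR 0 to 5 passed with each library left out (0 to 1 on the stromal scale). The circular RNA call of SPARCL1 at 18 months fell to 0 members when scaled on the gene table total and with the replicate block, and was 0 to 1 with each library left out. The 4-year minus 6-month difference of the log2 ratio ranged from 3.67 to 4.09 for THBS2 to THBS1 and from 0.69 to 1.46 for CCN2 to CCN1 with each library left out. The sign turned for CCN1 between 18 months and 4 years with RLE scaling (0.0503) and DESeq2 (0.0525), for CCN1 at 18 months with library size alone (0.12) and limma on FPKM (0.13), for CCN1 at 4 years (0.0239) and WWTR1 at 4 years (0.18) with limma on FPKM, and for THBS1 at 18 months on the stromal scale with endothelial genes alone (0.26). The cause was not tested for any of these. With each library left out, ranges that crossed 0 were -0.20 to 0.15 for CCN1, -1.10 to 0.10 for POSTN, -0.11 to 0.28 for TNC and -0.11 to 1.79 for SPP1, all between 18 months and 4 years, and -0.0535 to 0.33 at 18 months and -0.0116 to 0.22 at 4 years for FN1 on the stromal scale. Same-numbered replicates of different ages correlated at -0.14 to 0.10 and are different animals, so the numbers do not pair the samples. With the replicate block 5 members passed at 18 months, CCN2 being lost (1.37, adjusted p = 0.0608), and 8 at 4 years, and 9439 and 11939 genes passed against 10026 and 12372. Library size alone moved the median of all genes to 0.43 at 18 months and 0.23 at 4 years, and the share of called genes that were higher to 72.6% from 54.7% and to 58.3% from 49.7%. TNC and SPP1 rest on few counts, which limits their precision, and 9 animals with 6 residual degrees of freedom limit all tests.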
